A study of Mus musculus with 8 samples.

Results

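The genes described here were 9 transcription factors grouped under the Paneth lineage: Sox9, Atoh1, Gfi1, Spdef, Bhlha15, Tcf7l2, Foxa3, Creb3l1 and Nr5a2. Their known roles lie in the formation of secretory cells, in the build-up of the secretory apparatus or in crypt cells. They were chosen by name, from their known roles, and found by matching the Ensembl gene IDs of the count table to mouse gene symbols. The rule used no measured value, although earlier results of these data were known when the set was chosen. All 9 were among the 55414 gene IDs of the table, and all 9 were among the 11988 genes with enough counts to be tested. Paneth cells were sorted from the small intestine of C57BL/6J mice, and each library was made from polyadenylated RNA of 1 mouse. The control group (water) had 4 mice on Milli-Q water, and the treated group (zinc) had 4 mice on water with 25 mM ZnSO4. Both groups drank their water for 7 days. The comparison asks how gene expression in Paneth cells differs after zinc supplementation.

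In the intestinal crypt, progenitors that escape Notch signalling switch on Atoh1 and enter the secretory lineage, from which Paneth, goblet, enteroendocrine and tuft cells arise. Gfi1 and Spdef act downstream of Atoh1. Gfi1 sets goblet and Paneth cells apart from enteroendocrine cells, and Spdef drives maturation of goblet and Paneth cells. Wnt signalling, read out by β-catenin with TCF factors such as Tcf7l2, drives Sox9, and mice without Sox9 in the gut lack Paneth cells. Bhlha15, Creb3l1 and Foxa3 belong to the later steps, in which secretory cells expand their endoplasmic reticulum and granules, and Nr5a2 is a nuclear receptor of crypt cells.

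The libraries held 20760764 to 24117111 counts. Levels are given as CPM, counts relative to library size after scaling with TMM factors, which correct for differences in library composition. The TMM factors ran from 0.764 to 1.23. Markers of Paneth cells took 47.7 to 57.2% of the counts in the water libraries and 45.3 to 58.8% in the zinc libraries (exact two-sided permutation test, p = 0.943). Goblet cell markers took 1.09 to 1.33% in water and 1.20 to 1.77% in zinc libraries (p = 0.400, same exact test), and stem and cycling cell markers took 0.377 to 0.791% and 0.400 to 0.468% (p = 0.143, same exact test). Enteroendocrine, tuft and enterocyte markers each stayed at or below 0.0360%. edgeR called 0 genes of these lists, and the smallest p belonged to the cycling gene Top2a (log2 fold change 0.43 ± 0.13 SE, edgeR adjusted p = 0.660), to the stem cell gene Olfm4 (-0.48 ± 0.19 SE, adjusted p = 0.998) and to the enterocyte gene Sis (2.49 ± 0.65 SE, adjusted p = 0.852). Their part in the levels of the lineage factors was not tested. Of 10 immune markers 6 had 0 counts in every library, among them Cd3e, and of 8 stromal markers 5 had 0 counts, among them Col1a1 and Pdgfra. Transcripts of the sorting markers Kit (139 ± 25.7 CPM in water, 146 ± 19.2 in zinc, SD, n = 4) and Cd24a (1646 ± 314 and 1811 ± 224) were high in both groups. Mt2, a metallothionein that cells induce on zinc uptake, was at 3.95 ± 2.31 CPM in water and 283 ± 116 CPM in zinc libraries (SD, n = 4, log2 fold change 6.15, edgeR quasi-likelihood adjusted p = 0.0198).

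No difference between zinc and water was detected for any of the 9 lineage factors. In the edgeR quasi-likelihood fit over all tested genes every one of them had an adjusted p of 0.998, so that 0 of 9 passed the threshold of 0.05, against 10 of 11988 tested genes, or 0.0834%. At an unadjusted p below 0.05 there was 1 of 9 (Creb3l1), against 4.65% of the tested genes. DESeq2 called 0 of the 9 as well. The zinc and water libraries overlapped for all 9 factors, while 2.84% of the tested genes had groups that did not overlap. Zinc over water gave a log2 fold change above 0 for 4 factors and below 0 for 5, and 51.9% of the tested genes were above 0. The median log2 fold change was -0.11 for the factors and 0.01 for all tested genes, and the median size of the change was 0.11 and 0.12. All 9 of the 95% intervals lay within 2-fold in either direction, and 6 lay within 1.5-fold. In sorted bulk samples, fewer cells of a type and less RNA per cell cannot be told apart.

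**Figure D1:**
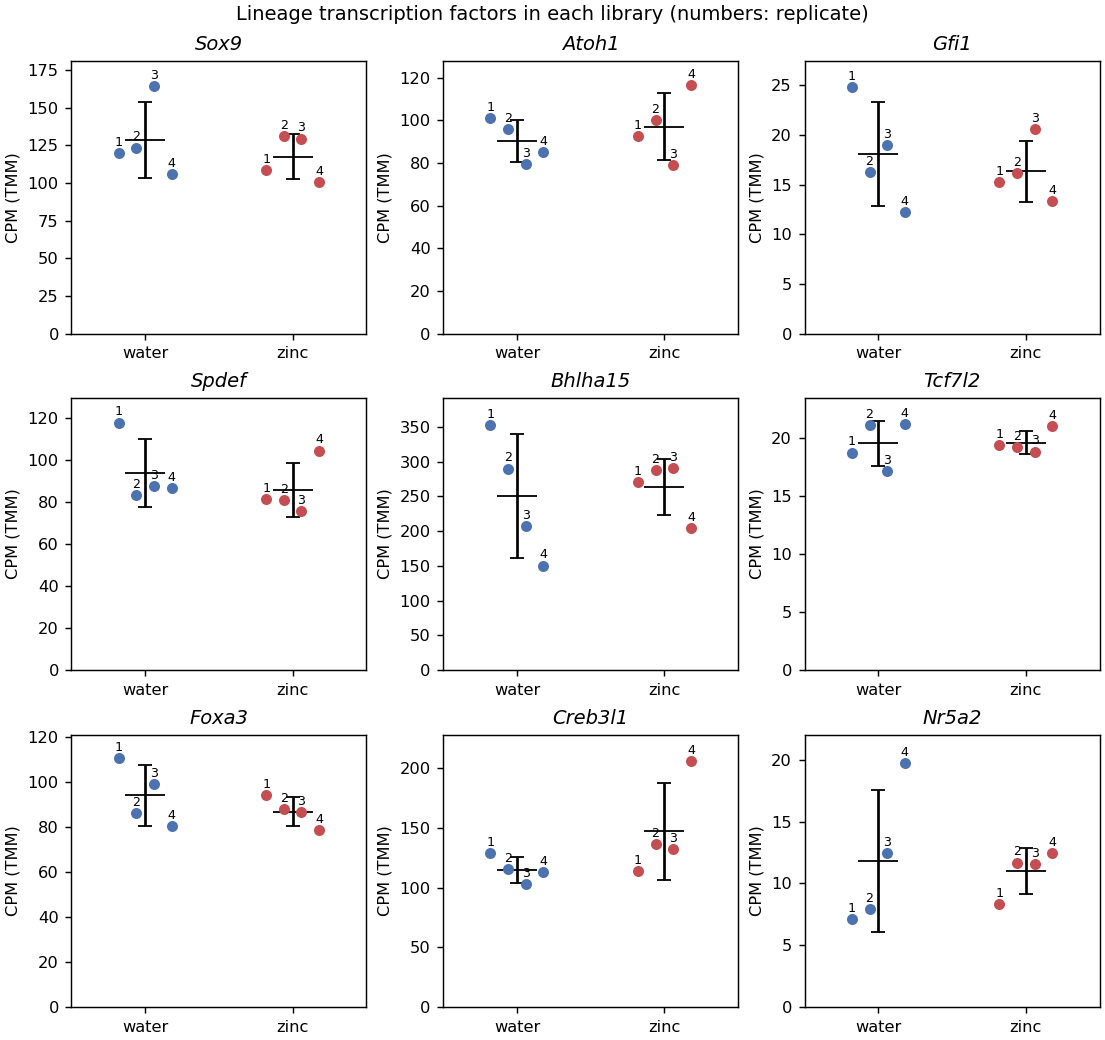
CPM with TMM scaling (y axis, from 0) of each lineage factor in every library, in 1 panel per gene. Points are libraries of water (blue) and zinc (red) mice with their replicate number, and black bars are the mean ± SD of 4. In every panel the groups overlap. The highest point is zinc replicate 4 for Creb3l1 (206 CPM) and water replicate 1 for Spdef (118 CPM).

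Atoh1 is the basic helix-loop-helix factor without which Paneth, goblet and enteroendocrine cells do not form. It lies on chromosome 6 at 64706109 to 64708229 (plus strand, GRCm39) and has a single exon. Its level was 101, 95.9, 79.5 and 85.2 CPM in water replicates 1 to 4 and 92.6, 100.1, 79.0 and 116 CPM in zinc replicates 1 to 4. Zinc replicate 4 was the highest of the 8 libraries and zinc replicate 3 the lowest, so that the zinc group enclosed the water group. The log2 fold change was 0.10 ± 0.13 (SE, 95% interval -0.17 to 0.37), and without zinc replicate 4 it was -0.0019.

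Gfi1, a zinc finger repressor that keeps secretory progenitors from the enteroendocrine fate, lies on the minus strand of chromosome 5 (107864523 to 107873902, GRCm39). It had 24.8, 16.2, 19.0 and 12.3 CPM in the water libraries and 15.3, 16.2, 20.5 and 13.3 CPM in the zinc libraries. The water group held both the highest and the lowest value and enclosed the zinc group. edgeR gave a log2 fold change of -0.14 ± 0.19 (SE, 95% interval -0.55 to 0.27), and without water replicate 1 it was 0.05. An antisense noncoding gene, A430072P03Rik, shared 10.3% of the exon bases of Gfi1 and had 0 to 4 counts per library.

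Spdef, an ETS factor that drives maturation of goblet and Paneth cells, lies on the minus strand of chromosome 17 (27933326 to 27947929, GRCm39). It had 118, 83.1, 87.7 and 86.5 CPM in the water libraries and 81.2, 81.0, 75.5 and 104 CPM in the zinc libraries. Zinc replicates 1 to 3 were below every water library, while zinc replicate 4 was above all but water replicate 1. The log2 fold change was -0.13 ± 0.13 (SE, 95% interval -0.41 to 0.15).

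Sox9, the HMG-box factor required for Paneth cell formation, lies on the plus strand of chromosome 11 (112673009 to 112678586, GRCm39) with 3 exons. It had 120, 124, 165 and 106 CPM in the water libraries and 109, 131, 130 and 101 CPM in the zinc libraries. Water replicate 3 was the highest of all libraries, and the other values of both groups lay between 101 and 131 CPM. On the log2 scale the change was -0.13 ± 0.14 (SE, 95% interval -0.42 to 0.16), and without water replicate 3 it was 0.01. The antisense noncoding gene BC006965 shared 13.0% of the exon bases of Sox9 and had 0 to 8 counts per library.

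Tcf7l2, the main TCF partner of β-catenin in the crypt, lies on the plus strand of chromosome 19 (55730188 to 55922091, GRCm39) and has 22 merged exons. It had 18.8, 21.1, 17.2 and 21.2 CPM in the water libraries and 19.4, 19.2, 18.8 and 21.0 CPM in the zinc libraries. The whole zinc group lay inside the range of the water group. With TMM scaling this was the steadiest of the factors, with a highest value 1.24 times the lowest over 8 libraries. Its biological coefficient of variation (BCV, the replicate spread that remains after counting error) was 0.131, at the 12.9th percentile of the tested genes. The spread depended on the scaling. Unscaled counts of Tcf7l2 were 300 in water replicate 1 and 556 in water replicate 4, with library totals of 20949548 and 21600340. The log2 fold change was 0.0039 ± 0.12 (SE, 95% interval -0.26 to 0.27), and its sign turned in 9 of 17 alternative fits.

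Bhlha15, also called Mist1, is a basic helix-loop-helix factor that scales up the secretory machinery of exocrine cells. It lies on the plus strand of chromosome 5 (144127086 to 144131259, GRCm39). Its level was 353, 290.1, 207 and 150.5 CPM in the water libraries and 271, 288, 291 and 204 CPM in the zinc libraries. The water group held the highest and the lowest value, 2.34-fold apart, and enclosed all zinc libraries. The fitted log2 change was 0.08 ± 0.23 (SE, 95% interval -0.44 to 0.59), and without water replicate 4 it was -0.11.

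Creb3l1, also called OASIS, is a bZIP factor held in the endoplasmic reticulum membrane and freed by cleavage, with a known role in goblet cell maturation. It lies on the minus strand of chromosome 2 (91812673 to 91854917, GRCm39). It had 129, 115, 103 and 113 CPM in the water libraries and 114, 136, 132 and 206 CPM in the zinc libraries. Zinc replicates 2, 3 and 4 were above every water library, and zinc replicate 1 was within the water range. The log2 fold change was 0.36 ± 0.16 (SE, 95% interval 0.03 to 0.69), the farthest from 0 among the 9 factors. The unadjusted edgeR p was 0.0362 and the adjusted p was 0.998, and an exact two-sided permutation test of the libraries gave p = 0.0857 where the smallest possible p is 0.0286. Without zinc replicate 4 the log2 fold change was 0.14.

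Foxa3, a forkhead factor of secretory and endodermal cells, lies on the minus strand of chromosome 7 (18747209 to 18757471, GRCm39). It had 111, 86.2, 99.3 and 80.3 CPM in the water libraries and 94.4, 88.0, 86.6 and 78.8 CPM in the zinc libraries. The highest library was water replicate 1 and the lowest was zinc replicate 4. With zinc the log2 fold change was -0.11 ± 0.12 (SE, 95% interval -0.36 to 0.14).

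Nr5a2, also called LRH-1, is a nuclear receptor that binds phospholipids and acts in crypt cell renewal and local steroid synthesis. It lies on the minus strand of chromosome 1 (136770303 to 136888186, GRCm39). Its level was 7.13, 7.95, 12.5 and 19.7 CPM in the water libraries and 8.31, 11.7, 11.6 and 12.4 CPM in the zinc libraries. The water group spanned 2.77-fold and enclosed the zinc group. Nr5a2 was the most variable factor, with a BCV of 0.279 at the 78.3th percentile of the tested genes, and it also had the fewest counts, 114 in the lowest library. The log2 fold change was -0.11 ± 0.28 (SE, 95% interval -0.73 to 0.51), and without water replicate 4 it was 0.25. Only 3 of the 9 factors had a BCV above the median of the tested genes, 0.172.

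**Figure D2:**
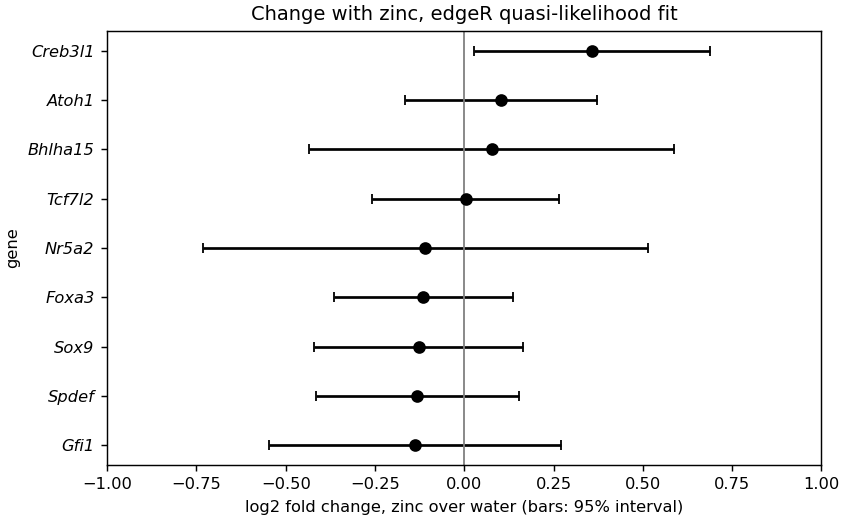
Log2 fold change of zinc over water (x axis) for each lineage factor (y axis), from the edgeR quasi-likelihood fit, with 95% intervals as bars. Creb3l1 has the interval that leaves out 0 (0.03 to 0.69), and none of the factors passes the threshold after adjustment over 11988 genes.

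Levels of different genes were compared per kilobase (kb) of merged exons. Bhlha15 had the highest level, 73.1 ± 18.4 CPM per kb (SD, n = 8), at the 98.6th percentile of the tested genes. Creb3l1 (48.4 ± 12.0), Foxa3 (44.3 ± 5.16), Atoh1 (44.2 ± 5.92), Spdef (38.9 ± 6.14) and Sox9 (29.5 ± 4.82) followed. Gfi1 (5.40 ± 1.28), Tcf7l2 (2.19 ± 0.159) and Nr5a2 (1.32 ± 0.463) were lower, and Nr5a2 was at the 38.7th percentile. Neighbours within the upper 6 had overlapping ranges. Creb3l1 was above Foxa3 in 5 of 8 libraries, and Foxa3 was above Atoh1 in 4 of 8. Bhlha15 was above Creb3l1 in 7 of 8 libraries. The clear step was from Sox9 to Gfi1, with Sox9 5.62-fold higher on average, higher in 8 of 8 libraries and with no overlap of the ranges. The level of Gfi1 was 2.50-fold that of Tcf7l2, higher in 8 of 8 libraries, but in 6 of 8 when the length of the longest coding transcript was used. With that length Spdef was at 46.6 CPM per kb and moved from place 5 to place 3, and Tcf7l2 was at 4.66 CPM per kb. By merged exons, none of 48 other intestinal transcription factors and paralogs had a higher level per kb than Bhlha15. On that measure 3 of them (Cdx1, Elf3 and Hnf4a) were above Creb3l1, Foxa3, Atoh1 and Spdef. The 48 genes were not ranked by the longest coding transcript, so this order may depend on the length used.

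Beside the paralogs chosen for comparison, the lineage factors mostly had the highest level. The paralogs do not cover whole protein families, and bHLH genes such as Ascl2 and Hes6 were not among them. Sox9 was 2.82-fold above Sox4 per kb, and Sox8 and Sox10 had 0 counts in all libraries, where up to 3 counts (0.124 CPM in the deepest library) remain possible. Foxa3 was 3.96-fold above Foxa1 and 6.21-fold above Foxa2, the forkhead paralogs of the same endodermal group. Creb3l1 was 1.40-fold above Creb3l4 (1.13 to 2.22 over the libraries), and Creb3 and Creb3l2 were at 4.48 and 5.75 CPM per kb. Each of these differences had the same direction in 8 of 8 libraries.

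The bHLH factors of the enteroendocrine branch were low beside Atoh1 and Bhlha15. Neurog3, the factor that starts that branch, was at 0.55 CPM per kb and Neurod1 at 0.18. Gfi1b, a paralog of Gfi1 found in tuft cells, was at 0.21 CPM per kb. Nr5a1, the steroidogenic paralog of Nr5a2, had 0 counts in all libraries. Spdef and Tcf7l2 were not the highest among the paralogs compared. Elf3, an epithelial ETS factor, was above Spdef in 8 of 8 libraries (56.9 CPM per kb, 1.49-fold), and Spdef was 2.00-fold above Ehf. Tcf7 was 1.85-fold above Tcf7l2 in 8 of 8 libraries by merged exons, but by the longest coding transcript Tcf7l2 was the higher in 6 of 8. Of 21 paralogs 13 were tested and 0 were called, with a median log2 fold change of -0.01.

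**Figure D3:**
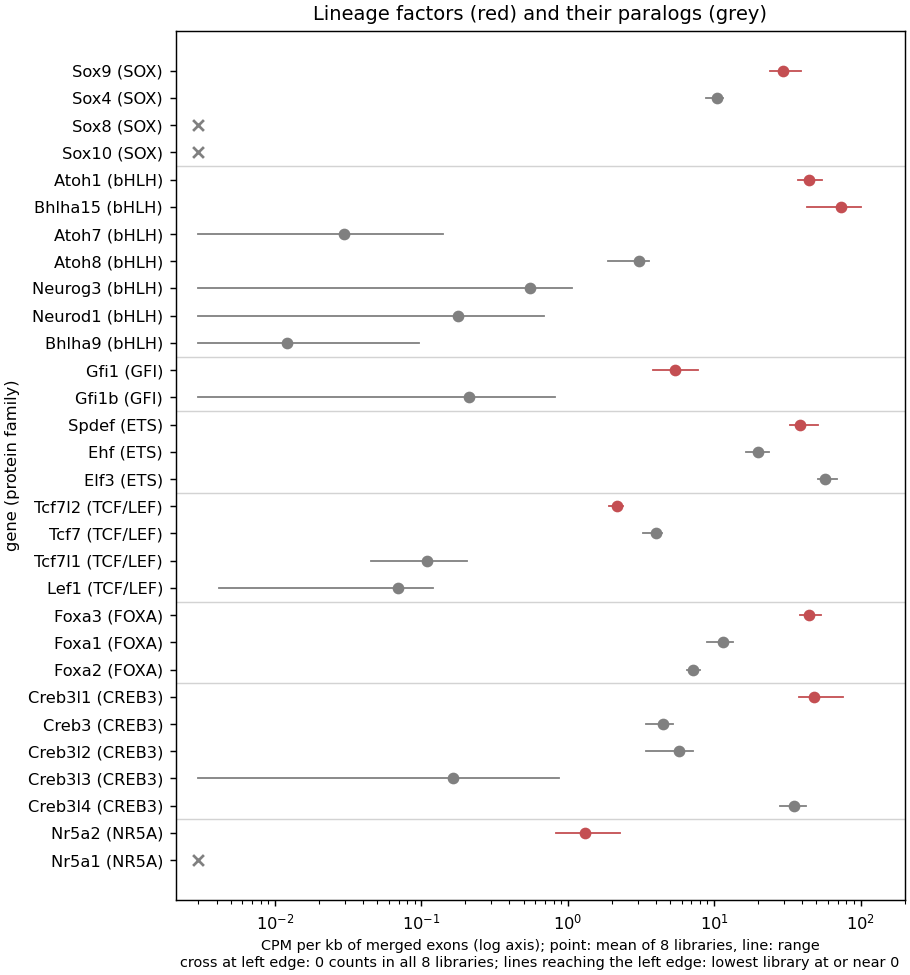
Level in CPM per kb of merged exons (x axis, log scale) of the lineage factors (red) and paralogs (grey), grouped by protein family (y axis). Points are means and lines are ranges over 8 libraries, and crosses mark genes with 0 counts in every library. Elf3 (56.9) lies above Spdef (38.9) and Tcf7 (4.02) above Tcf7l2 (2.19), while Bhlha15 and Atoh1 are the 2 highest bHLH points shown. Each other red point is the highest shown of its family.

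Short windows of the promoters of 3 factors are shown as examples of the letters that factors of the same set are known to bind. CANNTG is the E-box read by bHLH factors such as Atoh1 and Bhlha15, ATCAAAG is read by TCF factors, and ACAATG by SOX factors. Promoters ran from 250 bases before to 50 bases after the start of the gene (RefSeq, GRCm38.p6), and 7 of the 9 factors had at least 1 in the table, with 10 promoters in all. Both strands were searched, and the capitals mark the match. The Bhlha15 windows, on the plus strand, were chr5:144190076-144190101, chr5:144190089-144190114 (which shares bases with the one before) and chr5:144190221-144190246. The Atoh1 window was chr6:64728967-64728993 and the Tcf7l2 window chr19:55741697-55741722, also on the plus strand, and both matches read on the other strand.
Bhlha15, E-box 1: accccaaggcCAGGTGtcctggccag
Bhlha15, E-box 2: gtgtcctggcCAGATGcgatccgggt
Bhlha15, E-box 3: ggcgtggccgCAGGTGccgccctggc
Atoh1, TCF letters: tgtaaaaactCTTTGATtggctcctcg
Tcf7l2, SOX letters: cccaaaggatCATTGTtggccgcccc

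E-box letters were in 72.3% of 32851 promoters of that length, ATCAAAG in 3.73% and ACAATG in 12.6%. Of the 10 promoters of the lineage factors 6 held an E-box. There were 3 E-box matches in the Bhlha15 promoter, 5 over the 2 Nr5a2 promoters, 2 over the 2 Gfi1 promoters and 1 in the Foxa3 promoter, and none in those of Atoh1, Spdef and Tcf7l2. ATCAAAG was in 1 of the 10, that of Atoh1, and ACAATG in 1, a Tcf7l2 promoter with a second match besides the one shown. AAGGTCA, the half-site read by Nr5a2, was in 4.72% of all promoters and in 0 of the 10 promoters of the lineage factors. These matches are letters in a window and say nothing about binding in these cells.

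The genes around the lineage factors were read from lists of other regulators and targets, and in each of them edgeR called 0 genes. Of 34 other intestinal transcription factors 25 were tested, 7 higher and 18 lower, with a median log2 fold change of -0.07. At an unadjusted edgeR p below 0.05 there were 2 of 25, Cdx2 and Pdx1, against 4.65% of all tested genes. Cdx2, which maintains intestinal identity, was at 67.5 ± 6.39 CPM in water and 56.2 ± 5.27 CPM in zinc libraries (SD, n = 4, log2 fold change -0.26 ± 0.11 SE, edgeR adjusted p = 0.998). Cdx1 and Elf3 had the highest levels of that list per kb, 59.8 and 56.9 CPM per kb.

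Among 28 partners and inhibitors of the lineage factors 27 were tested, 11 higher and 16 lower (median -0.04). Id1, which blocks bHLH factors by binding their E-protein partners, had the smallest p. It was at 11.4 ± 1.20 CPM in water and 7.40 ± 1.73 CPM in zinc libraries (SD, n = 4), with a log2 fold change of -0.62 ± 0.18 (SE) and an edgeR adjusted p of 0.547. Ctnnb1, the gene of β-catenin, was the highest partner at 56.8 CPM per kb, followed by the corepressor Cbfa2t3 at 9.09 CPM per kb.

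Notch signalling, which represses Atoh1 in neighbouring cells, was represented by 19 tested genes of 23, with 13 higher and 6 lower (median 0.08). The ligands Jag2 (log2 fold change 0.89 ± 0.36 SE) and Jag1 (-0.55 ± 0.23 SE) had unadjusted p below 0.05 in opposite directions, both with an edgeR adjusted p of 0.998. These were 2 of the 19, against 4.65% of all tested genes. Jag2 was near the lower end of what was measured, at 1.59 ± 0.708 CPM in water and 3.00 ± 1.04 CPM in zinc libraries (SD, n = 4). Hes6, a helix-loop-helix gene of the list, was at 12.5 CPM per kb.

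Of the Wnt response genes, a list of Wnt target genes with the receptor genes Fzd5, Lrp5 and Lrp6, 17 of 17 were tested, with 5 higher and 12 lower (median -0.05). The defensin-processing protease Mmp7 was at 5056 CPM per kb and Ephb3, which positions Paneth cells at the crypt base, at 17.3 CPM per kb. Rnf43 had the smallest p of the list (log2 fold change -0.23 ± 0.13 SE, edgeR adjusted p = 0.998).

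The secretory capacity genes, many of them targets of Bhlha15 or Creb3l1, were tested for 15 of 16, with 13 higher and 2 lower. Of all tested genes 51.9% were higher. The median log2 fold change was 0.06, beside 0.01 for all tested genes. The list took 0.199 to 0.276% of the counts in water and 0.205 to 0.370% in zinc libraries (exact two-sided permutation test, p = 0.657). None of the 15 had an unadjusted p below 0.05. Sec23b, a subunit of the COPII coat that carries proteins out of the endoplasmic reticulum, had the smallest p of the list (0.39 ± 0.23 SE, edgeR adjusted p = 0.998), and Agr2 (733 CPM per kb) and Tmed6 (309 CPM per kb) had the highest levels. Of 10 Nr5a2 targets 5 were tested, with 2 higher and 3 lower (median -0.04), and the steroid synthesis genes Cyp11b1 and Hsd3b1 had 0 counts in all libraries, as did Fgf15. Abcg8, a sterol exporter subunit, had the smallest p (log2 fold change -0.38 ± 0.26 SE, edgeR adjusted p = 0.998), and it and the cyclin gene Ccnd1 had the highest levels, 2.80 and 11.5 CPM per kb.

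The difference of Creb3l1 rested largely on zinc replicate 4. For all 9 factors that library lay outside the range of the other zinc libraries, above it for 5 and below it for 4. The share of all tested genes outside that range was not computed, so whether this is particular to the factors is not known. Zinc replicate 4 also had the highest TMM factor of the 8 libraries, 1.23. In zinc replicate 4 Creb3l1 reached 206 CPM, while the remaining zinc mice had 114 to 136. Atoh1 was at 116 against 79.0 to 100.1 and Spdef at 104 against 75.5 to 81.2. Tcf7l2 was at 21.0 against 18.8 to 19.4 and Nr5a2 at 12.4 against 8.31 to 11.7. Bhlha15 was at 204 against 271 to 291 CPM, and Sox9, Gfi1 and Foxa3 were also lower in that library than in every other zinc library. Several goblet cell markers were also high in it. The list of 9 took 1.77% of its total counts against 1.20 to 1.34% in the other zinc libraries. That share has no TMM scaling, unlike the CPM values, and the TMM factor was 1.23 here but 0.775 in zinc replicate 1. It was not computed with TMM scaling, so this order of the libraries holds for total counts only. By CPM, 4 of the 9 had their highest value of the 8 libraries in zinc replicate 4. Muc2 was at 3085 CPM against 2013 to 2186, Fcgbp at 1636 against 401 to 1022, Agr2 at 1636 against 594 to 1030 and Zg16 at 172 against 8.25 to 20.4 in the other zinc libraries. In the water libraries these markers reached 2336, 1305, 1116 and 82.1 CPM. Clca1, Tff3 and Klk1 were above the other zinc libraries in zinc replicate 4, but each was higher in a water library (Clca1 at 124 CPM against up to 238 in water). The markers Spink4 and Muc13 were lower in it than in the other zinc libraries. The part of these goblet transcripts in the levels of the lineage factors was not tested.

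**Figure D4:**
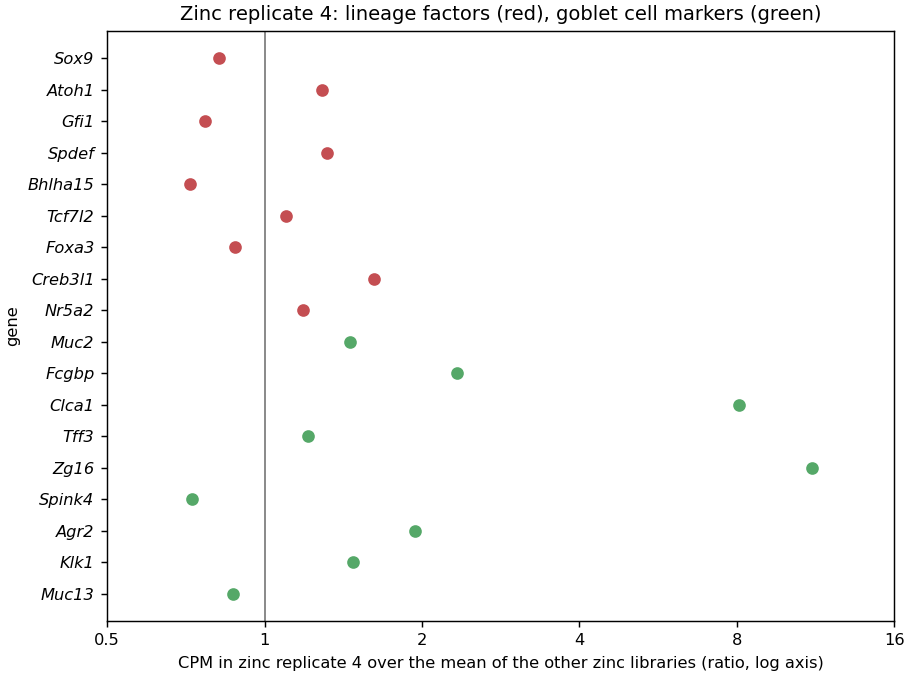
Ratio of CPM in zinc replicate 4 to the mean CPM of the other 3 zinc libraries (x axis, log scale) for the lineage factors (red) and goblet cell markers (green), with the line at equal level. Creb3l1 (1.62) is the highest of the factors and Bhlha15 (0.721) the lowest, and Zg16 (11.1) and Clca1 (8.09) lie farthest to the right. The ratio leaves out the water libraries, in which Clca1 reached 238 CPM against 124 in zinc replicate 4.

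Whether the factors vary together from mouse to mouse was tested for the 36 pairs over 8 libraries, with the groups pooled since 4 libraries are too few for a correlation within a group. The permutations treated the 8 libraries as exchangeable, although same-numbered libraries had similar TMM factors, such as 0.764 and 0.775 for replicates 1 and 1.21 and 1.23 for replicates 4. The Pearson r of log2 CPM was above 0 for 18 pairs, with a median of 0.02 and a range from -0.88 to 0.82. An unadjusted exact permutation p below 0.05 was found for 6 pairs, and 0 pairs passed after Benjamini-Hochberg adjustment (smallest adjusted p 0.156). Rank correlations gave 0 pairs as well. With library totals as the only scaling the median r was 0.52 and 31 of 36 pairs were above 0, also with 0 pairs past the threshold, so the sign of a typical pair depended on the scaling.

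Atoh1 and Creb3l1 had r = 0.76 (exact permutation p = 0.0226, adjusted 0.203) and rho = 0.60 (exact permutation p = 0.132, adjusted 0.529). Their r was 0.89 without the 2 libraries farthest from the median of Atoh1 and 0.93 with library totals. Both factors were highest in zinc replicate 4, but zinc replicate 3 had the lowest Atoh1 of the 8 libraries (79.0 CPM) and the third highest Creb3l1 (132 CPM). Gfi1 and Foxa3 had r = 0.82 (exact permutation p = 0.0130, adjusted 0.156) and rho = 0.69 (exact permutation p = 0.0694, adjusted 0.499), with 0.51 without the 2 farthest libraries and 0.60 with library totals. Leaving out zinc replicate 3 put both pairs past the threshold, with exact permutation adjusted p of 0.0214 for Atoh1 with Creb3l1 and 0.0429 for Gfi1 with Foxa3.

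The most negative pair was Bhlha15 and Nr5a2, with r = -0.88 (exact permutation p = 0.00446, adjusted 0.156) and rho = -0.86 (exact permutation p = 0.0107, adjusted 0.193). It was -0.66 without the 2 farthest libraries and -0.40 with library totals. The library highest in Nr5a2, water replicate 4, was the lowest in Bhlha15, and the library highest in Bhlha15, water replicate 1, was the lowest in Nr5a2. Sox9 and Tcf7l2 had r = -0.81 (exact permutation p = 0.0100, adjusted 0.156) and rho = -0.67 (exact permutation p = 0.0831, adjusted 0.499), but with library totals the sign turned to 0.52.

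**Figure D5:**
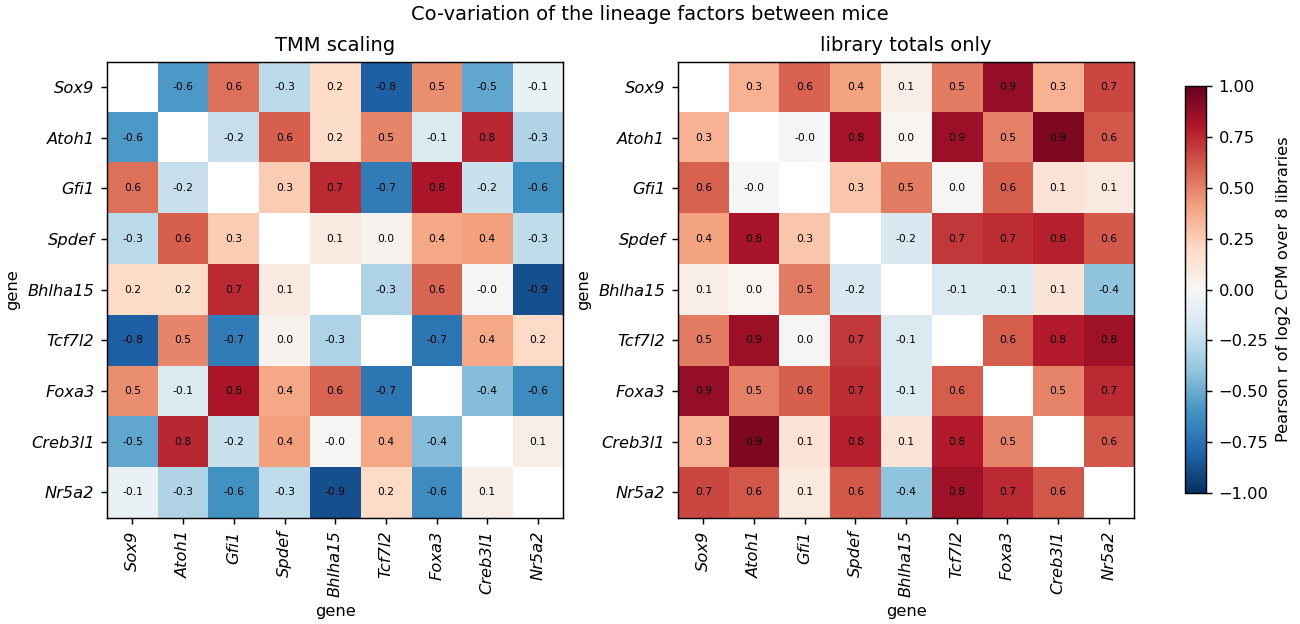
Pearson r of log2 CPM over 8 libraries for each pair of lineage factors (both axes), with TMM scaling on the left and library totals only on the right (red above 0, blue below 0). The left panel has 18 of 36 pairs above 0 and the right panel 31 of 36.

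The genes whose log2 CPM followed each factor most closely over the 8 libraries were sought among 8663 genes with a mean of at least 5 CPM, and are given as a description. For Atoh1 they were Cgref1 (r = 0.98) and Cracr2b (0.96), for Gfi1 Spart (0.99) and Casd1 (0.98), and for Spdef Atp6ap2 (0.94) and Ptger4 (0.94). For Sox9 they were Map3k1 (0.98) and Ppp1r13b (0.95), and for Tcf7l2 Pkmyt1 (0.96) and Nt5c (0.95). For Bhlha15 they were Pigv (0.98) and Cdk8 (0.98), for Foxa3 Chp1 (0.99) and Rnase4 (0.96), and for Nr5a2 Smyd3 (0.97) and Tmem171 (0.96). Creb3l1 was followed by Plk4 (0.97) and by Txndc5 (0.96), a disulphide isomerase of the endoplasmic reticulum. The number of genes with r above 0.9 ran from 8 for Spdef to 94 for Bhlha15.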

How the data were processed

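The authors deposited raw read counts per Ensembl gene ID for 8 libraries (4 water, 4 zinc), made with a stranded mRNA kit from cells sorted as CD24 high and c-Kit high. The submitters' processing notes name FastQC 0.12.0, STAR 2.7.0a, DESeq2 and mm39. The counting program, its annotation and its handling of strand and multi-mapping reads are not given in the sources used. Symbols, coordinates and exon lengths came from GENCODE M39 (GRCm39), which matched 54749 of 55414 IDs. The members and gene lists were chosen with earlier results of these data known.

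Zinc was compared with water in edgeR 4.0.16 (R 4.3.3) after filterByExpr (minimum count 10) and TMM scaling, by a robust quasi-likelihood F test with treatment only, and Benjamini-Hochberg adjustment over 11988 genes at 0.05. SE came from the log2 fold change and F. Total counts of 20760764 to 24117111 per library put the counting error of the factors at 1.34 to 6.16% (CV), and the libraries had no molecular identifiers, so limits cover counting error only. Marker shares and correlations were tested by exact two-sided permutation (4 against 4 gives 70 assignments, smallest p 0.0286). Alternatives were RLE factors, library totals, no Defa genes, no filter, a mean count of at least 50, DESeq2 1.42.0, limma-voom (limma 3.58.1) with sample weights, the replicate number as a block, a permutation test and each library left out. Named genes were the 9 factors, in each list any called gene or else the gene with the smallest p and the 2 with the highest level per kb, the 2 genes most like each factor, and Mt2, Kit and Cd24a. A gene that this rule names in the Notch list is not reported here. Pdx1, Jag1, further paralogs, goblet markers and genes with 0 counts were named after their values were seen. Of the cell type lists, shares, counts and the 3 genes with the smallest p are given. The fit was tested on simulated data.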

Additional observations from a re-analysis of the deposited data

Results flagged for a closer look

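In 18 groups of 4 libraries (9 factors in water and in zinc), 1 library stood apart from its group. Spdef was at 118 CPM in water replicate 1 and at 83.1 to 87.7 CPM in the other water libraries, a gap of 0.867 of the whole range, above Dixon's 95% critical value for 4 samples. Chance sets apart about 1 in 20 such groups. With library totals as the only scaling the same library was at 89.8 CPM, its gap was 0.177 of the range, and 0 of the 18 groups had a library apart.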

How the results depend on the processing

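None of the 9 factors passed the threshold under any of 17 alternatives. Spdef, Foxa3 and Creb3l1 kept their direction in all 17 (Creb3l1 0.14 to 0.46). The count of genes called over all tested genes was 10 in the reported fit, 66 without a low-count filter, 36 with DESeq2, 32 with the replicate block and 1 to 15 with 1 library left out (1 without water replicate 2, 4 without water replicate 3, 3 without zinc replicate 2). The adjusted p of the factors under the replicate block ran from 0.652 (Creb3l1) to 0.994, and changed no call. Same-numbered libraries deviated from their group means with correlations of 0.233, 0.0000551, 0.127 and 0.263, and not every library correlated best with its own number. Of the 4 values 3 were above 0.1, while libraries of different numbers reached at most 0.0397. The value near 0 belonged to replicates 2, whose TMM factors were close to 1 (1.02 and 0.998). The labels name nothing shared, so the numbers were not taken as pairs. The reported fit and the permutation tests therefore do not account for anything that a number shares. The log2 fold change of Tcf7l2 was -0.00136 with RLE factors, -0.00172 with library totals, -0.0023 without Defa genes, -0.0066 with a mean count of at least 50, -0.00111 with DESeq2, -0.0147 with limma-voom and from -0.0601 to 0.0420 with 1 library left out. Nr5a2 was 0.0727 with limma-voom, 0.00097 in the permutation test and from -0.28 to 0.25 with 1 library left out. With 1 library left out Sox9 ran from -0.21 to 0.00972, Atoh1 from -0.0019 to 0.18, Gfi1 from -0.29 to 0.0454 and Bhlha15 from -0.11 to 0.29. Member pairs past the threshold were 0 in the reported test and 0 to 2 with 1 library left out (2 without zinc replicate 3). By the longest coding transcript the levels of Spdef, Tcf7l2 and Nr5a2 were 46.6, 4.66 and 2.21 CPM per kb. The cause of these changes was not tested. With 4 mice a group, changes inside the 95% intervals (-0.73 to 0.51 for Nr5a2, the widest) remain possible.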

Other observations

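The share of counts from Defa genes was alike in libraries of the same replicate number. It was 39.9% in water replicate 1 and 38.5% in zinc replicate 1, 34.0% in both replicates 2, 33.2% in both replicates 3, and 29.2% and 27.9% in water and zinc replicates 4. The labels do not say what a number shares.

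The relation of each lineage factor to this share was computed under both scalings, with permutations that treat the 8 libraries as exchangeable whatever their number. With TMM scaling Foxa3 had r = 0.85 with the Defa share over the 8 libraries (exact permutation p = 0.00647, adjusted over the 9 factors 0.0583; rho = 0.81, exact permutation p = 0.0218, adjusted 0.196), and r = 0.62 without the 2 farthest libraries, but with library totals r was -0.71. Nr5a2 had r = -0.81 (exact permutation p = 0.0215, adjusted 0.0859; rho = -0.74, exact permutation p = 0.0458, adjusted 0.206), r = -0.84 without the 2 farthest libraries and r = -0.91 with library totals. Bhlha15 had r = 0.78 (exact permutation p = 0.0286, adjusted 0.0859; rho = 0.64, exact permutation p = 0.0962, adjusted 0.289), r = 0.69 without the 2 farthest libraries and r = 0.20 with library totals. None of the 9 passed the threshold with TMM scaling. With library totals 4 passed, namely Tcf7l2 (r = -0.96, exact permutation adjusted p = 0.0109), Nr5a2 (r = -0.91, adjusted p = 0.0109 in the same exact test), Atoh1 (r = -0.85, adjusted p = 0.0139) and Creb3l1 (r = -0.84, adjusted p = 0.0139). By rank, rho was -0.86, -0.93, -0.74 and -0.86 (exact permutation adjusted p 0.0321, 0.0201, 0.0825 and 0.0321), and without the 2 farthest libraries r was -0.93, -0.93, -0.76 and -0.79. With TMM scaling r was -0.47 for Tcf7l2, -0.06 for Atoh1 and -0.43 for Creb3l1. Defa counts are part of the library total. The TMM factors ran opposite to the share, from 0.764 at 39.9% in water replicate 1 to 1.23 at 27.9% in zinc replicate 4. Against the log2 TMM factor, TMM-scaled Foxa3 had r = -0.80, Bhlha15 r = -0.74 and Nr5a2 r = 0.81. Neither scaling is independent of the Defa share, so these correlations cannot separate the level of a factor from the scaling.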
